A study of Mus musculus with 5 samples.

Results

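The TNF superfamily, Bcl2 and caspase genes are the machinery by which a cell is told to live or to die. Ligands of the TNF superfamily (Tnfsf) bind receptors (Tnfrsf) on the cell surface, and the receptors pass the signal on through TRAF adaptors and RIP kinases to NF-kappaB or, through the adaptor Fadd, to caspase 8. Proteins of the Bcl2 family govern the permeability of the mitochondrial outer membrane, and caspases are the proteases that carry out apoptosis or release inflammatory cytokines. In macrophages, lipopolysaccharide (LPS) both switches on NF-kappaB, whose targets include survival genes, and can engage the death branch of the same pathway.

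The members were the genes whose symbol starts with Tnfrsf, Tnfsf, Traf, Casp and a digit, Bcl2, Birc or Ripk, or is Bax, Bak1, Bid, Bad, Mcl1, Cflar or Fadd. Birc3, Birc5, Bcl2a1a and Tnfrsf1b were left out by the rule, which was set with earlier results of these data known. A gene needed a probe with 1 gene symbol and a value on all 5 arrays. That left 29 of the 8637 genes so measured, on 43 probes, with 19 genes on 1 probe and 10 on several. Bcl2l2, Fadd and 1 further probe of Tnfrsf12a lacked a value on 1 array and are given apart. Bax, Bid and other genes of the IAP family (Birc) were not analysed here. Casp8ap2, a nuclear protein first found as a partner of caspase 8, and Trafd1, a regulator of innate signalling with a TRAF-type zinc finger, matched by name only.

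The macrophages were grown from bone marrow of C3H/ARC mice with human CSF-1, which drives their differentiation. Cells were unstimulated (0 h) or exposed to LPS of S. minnesota at 10 µg per ml for 0.5, 2, 7 or 21 h, and each time was measured on 1 two-colour cDNA array against RNA from the whole embryo of C57BL6/J mice (day 17.5). There are no replicates, so no p-value is given, and the labels do not state how many mice or cultures stand behind an array. The values below are log2 ratios of macrophage to embryo RNA after subtraction of the array median. Base 10 of the deposited logs was inferred from their range, and if the base was 2 every log2 value below is 3.32 times too large. The direction of the ratio is likely but not stated in the labels, and with the opposite direction every sign below would turn, so that each gene called higher would be lower and each one above the array median below it.

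Marker genes bore on that direction. Of 16 macrophage markers 6 were measured, with median log2 ratios of 1.34, 1.19, 1.57, 2.17 and 1.77 at 0, 0.5, 2, 7 and 21 h, led by the cathepsin gene Ctss and the lysozyme gene Lyz2. Cd68 (-0.49 at 0 h) and Tyrobp (-0.04 at 0 h) did not stand above the array median. The 7 measured embryo markers had medians between -2.62 and -2.31 and lay below the array median on every array. Of neutrophil markers 6 were measured, with medians of 0.30, 0.52, 0.21, 0.24 and -0.34 in order of time. In 94 of 207 runs of 96 consecutive probe numbers, a share of 10% or more of the probes was at least 2-fold above its 0 h value on the 0.5 h or the 2 h array. Of the member probes 17 lie in these affected runs and 26 outside, and 9 member genes have all their probes inside. The part of these runs in the early values on such probes was not tested.

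Most of these genes, like most of all genes measured, kept a steady ratio through 21 h of LPS. Of the 29 genes, 20 (69.0%) moved by less than 1 log2 unit over the 5 arrays, against 72.0% of all genes. By the rule of size, a difference of at least 2-fold from 0 h, 8 members (27.6%) passed at 1 or more times, against 20.5% of all genes. At 7 h or 21 h 4 members passed, against 9.39% of all genes. Casp8, Cflar and Tnfrsf1a stood higher at 7 h than at 0 h, Cflar also at 21 h, and the ligand gene Tnfsf13 lay lower at both times. The other 4, Bcl2l15, Ripk3, Ripk4 and Traf5, passed only at 0.5 h or 2 h, and all their probes lie in affected runs.

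**Figure D1:**
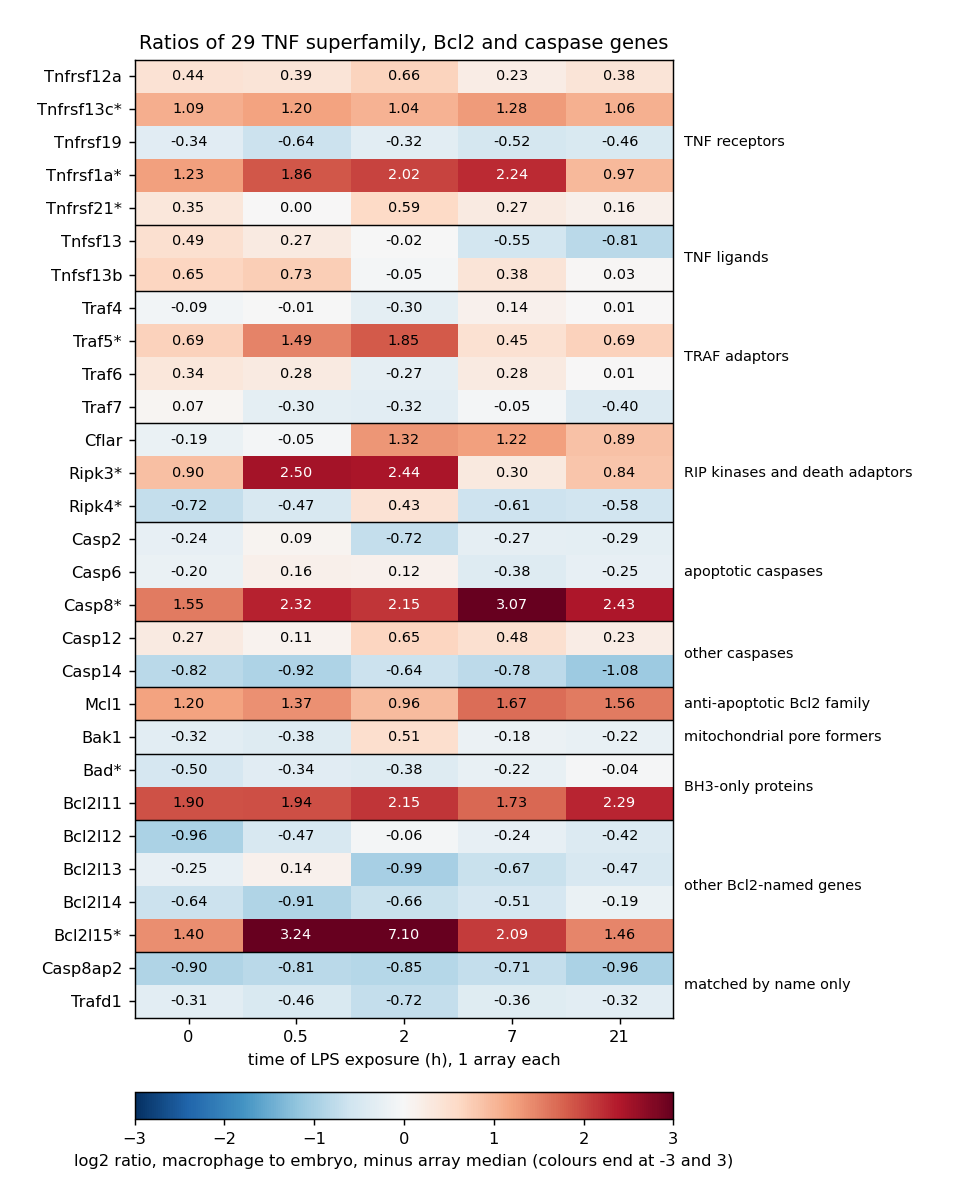
Heat map of the log2 ratio of macrophage to embryo RNA, minus the array median, for the 29 genes (rows, grouped by role) at 0, 0.5, 2, 7 and 21 h of LPS (columns, 1 array each). An asterisk marks genes with all probes in affected runs. Casp8, Bcl2l11 and Tnfrsf13c stay above 1 in all 5 columns, and Tnfsf13 stands at -0.81 at 21 h, against 0.49 at 0 h.

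In counts, the 29 members that the rule left stayed close to all genes at most times. At 0.5 h 2 of 29 members (6.90%) were at least 2-fold higher, against 5.95% of all genes, and 0 were lower, against 1.01%. At 2 h 5 members (17.2%) were higher, against 12.4% of all genes, and 0 lower, against 1.10%. At 7 h 3 members (10.3%) were higher, against 4.08%, and 1 (3.45%) was lower, against 3.16%. At 21 h 1 member (3.45%) was higher, against 3.05%, and 1 lower, against 1.45%. The 7 h share of higher members rests on 3 genes. The rule, set with earlier results known, left out 4 genes of the family, so these shares hold for the 29 genes only. With those 4 added back 2, 7, 6 and 3 of 33 were higher at 0.5, 2, 7 and 21 h. Lower were 0, 0, 1 and 2, against the same shares of all genes as above. Quantile normalization changed the split of the 29 members. It gave 0 higher and 1 lower at 0.5 h, 1 and 3 at 2 h, and 3 and 3 at 7 h. The member medians of 0.10, 0.18, 0.03 and -0.04 stood beside medians of 0.08, 0.07, 0 and 0.02 over all genes.

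The 20 members with a probe outside the affected runs held 0 genes at least 2-fold higher at any time, where 1.28%, 4.22%, 4.52% and 2.55% of the 5996 genes measured there were higher at 0.5, 2, 7 and 21 h. Among them 1 was lower at 7 h and 1 at 21 h, both times Tnfsf13, against 2.87% and 1.08% of genes. At 0.5 h and 2 h 0 were lower, against 0.984% and 1.55%. The median change at 2 h of the 5996 genes measured there was -0.08, against 0.07 over all genes. Each member called higher over all probes was thus called with a probe in an affected run, at 7 h and 21 h too. The runs were marked by 2-fold higher probes at 0.5 h or 2 h, so leaving them out removes early higher values by construction. At 7 h 4.82%, 5.56% and 3.61% of probes in the runs of Casp8, Cflar and Tnfrsf1a were 2-fold higher, against 4.08% of all genes. The last share counts means over the probes of a gene, not single probes, so it is only a rough guide. The median changes of these runs at 7 h were -0.10, -0.22 and -0.16. The part of the runs in the late calls was not tested.

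**Figure D2:**
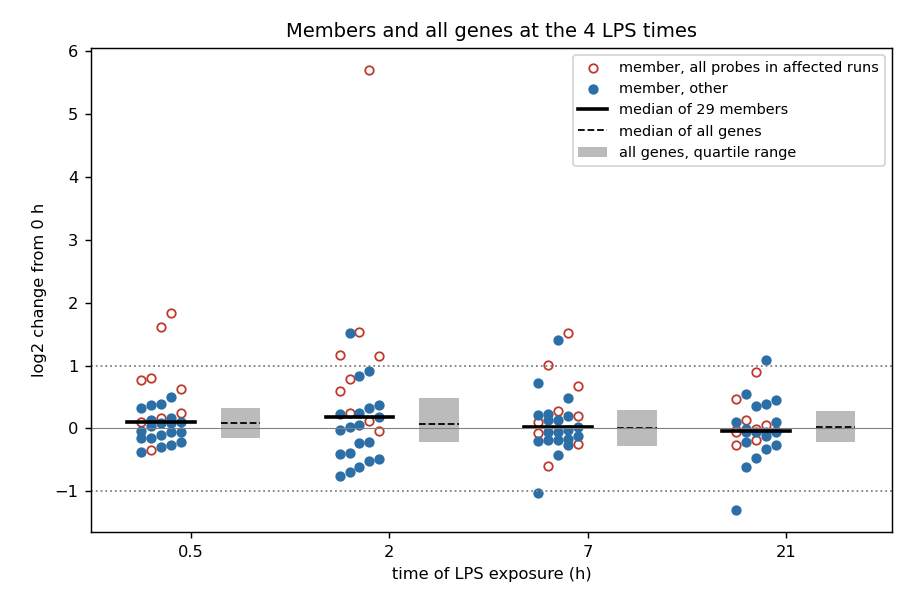
Log2 change from 0 h of each member (points) at 0.5, 2, 7 and 21 h, with the member median as a black bar, beside the quartile range (grey) and median (dashed) of all 8637 genes. Open points are members with all probes in affected runs, and dotted lines mark 2-fold. At 7 h the member median of 0.03 lies beside 0 for all genes, and the highest point is Bcl2l15 at 2 h (5.70).

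Casp8 encodes the initiator caspase that death receptors activate, which also restrains necroptosis. Its ratio was 1.55, 2.32, 2.15, 3.07 and 2.43 at 0, 0.5, 2, 7 and 21 h, so the 7 h array was the highest and the 0 h array the lowest. It stood 2.87-fold higher at 7 h than at 0 h (log2 change 1.52) and 1.85-fold higher at 21 h (0.89), and the 7 h change ranked 109th of 8637 genes. The single probe lies in an affected run, where it had the highest change of 83 probes at 7 h and the 7th highest at 21 h. At 0.5 h and 2 h it was the 33rd and 41st of its run, and its changes of 0.77 and 0.60 turned to -0.70 and -1.26 under quantile normalization. Only the late changes kept their sign under each scaling tried, with 1.30 without centring and 1.57 under quantile normalization at 7 h. Against the 0.5 h array the 7 h change was 0.75.

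Cflar encodes cFLIP, the catalytically inactive relative of caspase 8 that blocks its activation at death receptors. It was measured by 2 probes that disagreed. On the probe in an affected run the ratio was 0.79, 0.88, 3.79, 3.24 and 2.30 in order of time, and on the probe outside the runs -1.18, -0.98, -1.15, -0.81 and -0.52. The first probe was thus far higher from 2 h on, at 7.97-fold, 5.45-fold and 2.84-fold the 0 h level, while the second was within 0.20 of 0 h until 2 h and then 1.29-fold and 1.58-fold higher at 7 h and 21 h. Both probes stood above 0 h at 7 h and 21 h. The gene mean was 2.66-fold higher at 7 h (log2 change 1.41, SD over probes 1.47) and 2.12-fold at 21 h (1.08, SD 0.60), so the 7 h change was smaller than the SD between its own probes. At 2 h it was 1.51 with an SD of 2.09, and 21.1% of the probes in the run of the first probe were at least 2-fold higher. That probe had the 3rd highest change of the 90 in its run at 2 h and the highest at 7 h. The 21 h change was 0.94 without centring and 0.95 with each run centred on its own median, short of 2-fold. Without the affected runs the gene stood at 0.03, 0.37 and 0.66 at 2, 7 and 21 h.

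Cflar and Casp8 are next to each other on mouse chromosome 1 with no other protein-coding gene of the RefSeq table between them. They were the only measured pair of neighbours in the family.

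Tnfrsf1a encodes TNF receptor 1, the receptor through which TNF activates NF-kappaB and, by way of Fadd, caspase 8. Its ratio was 1.23, 1.86, 2.02, 2.24 and 0.97 at 0, 0.5, 2, 7 and 21 h, so the 7 h array was the highest and the 21 h array lay below the 0 h value. The change at 7 h was 2.01-fold (log2 change 1.01), just past the limit, and at 21 h the gene was at 0.832 of the 0 h level (-0.26). Its single probe lies in an affected run and had the 3rd highest change of 83 probes there at 7 h. The 7 h change was 1.0 under quantile normalization and 0.79 without centring, where it no longer reached 2-fold. In that run 13.3% and 34.9% of probes were 2-fold higher at 0.5 h and 2 h, and the early changes of 0.63 and 0.79 turned to -0.38 and -0.65 under quantile normalization. Tnfrsf1b, the other TNF receptor and one of the 4 genes left out, was 4.80-fold higher at 7 h and 2.39-fold at 21 h on a probe outside the runs.

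Tnfsf13 encodes APRIL, a ligand that sustains B cells and plasma cells and that macrophages are known to make. Its ratio was 0.49, 0.27, -0.02, -0.55 and -0.81 at 0, 0.5, 2, 7 and 21 h, lower on each later array. It stood at 0.488 of the 0 h level at 7 h (log2 change -1.03) and at 0.406 at 21 h (-1.30), where 50 of 8637 genes had a lower change. The probe lies outside the affected runs. Every setting with base 10 kept the sign, with 21 h changes between -1.53 after quantile normalization and -1.09 with 0.5 h as the baseline.

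The other measured ligand was Tnfsf13b, which encodes the B cell survival factor BAFF. Its ratio was 0.65, 0.73, -0.05, 0.38 and 0.03 in order of time. The changes of -0.70 at 2 h, -0.27 at 7 h and -0.62 at 21 h did not reach 2-fold, and the probe lies outside the runs. With each run centred on its own median these changes were -0.6, -0.38 and -0.7. Both ligands of B cell survival were thus below 0 h at 2, 7 and 21 h, with Tnfsf13 past the limit and Tnfsf13b not.

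**Figure D3:**
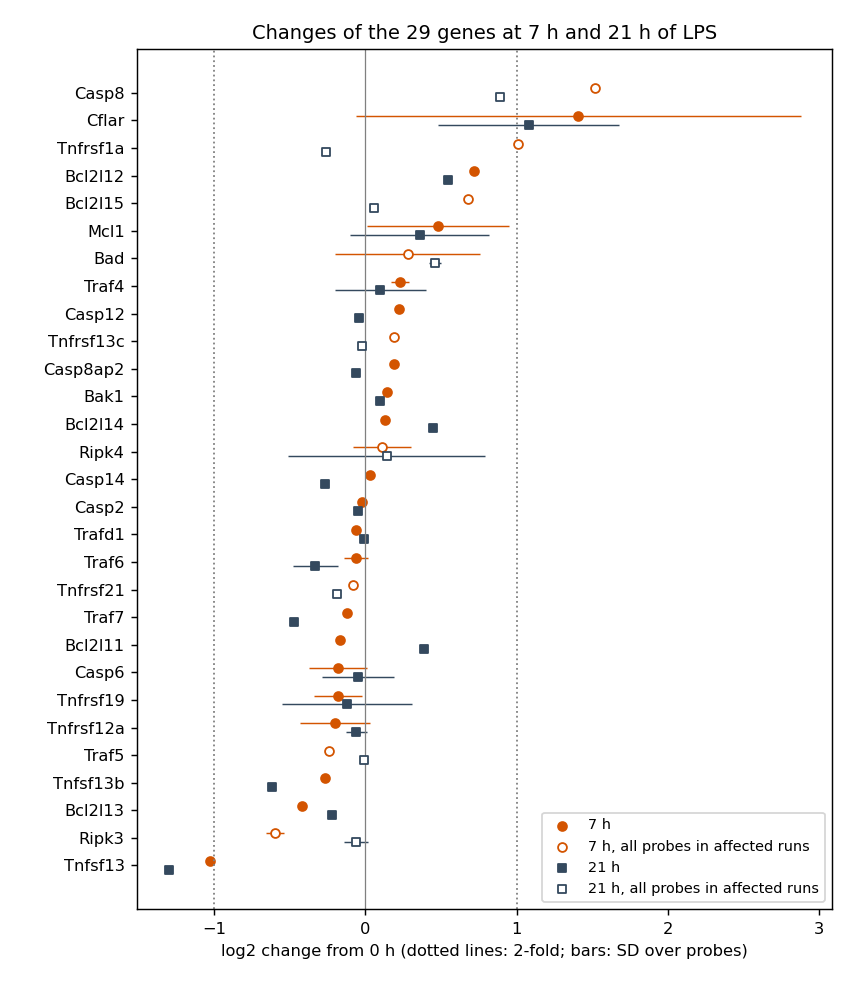
Log2 change from 0 h of the 29 genes at 7 h (circles) and 21 h (squares), ordered by the 7 h change. Bars are the SD over probes for genes with several probes, open symbols mark genes with all probes in affected runs, and dotted lines mark 2-fold. Casp8 (1.52), Cflar (1.41) and Tnfrsf1a (1.01) lie past the upper line at 7 h, and Tnfsf13 past the lower line at both times.

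The promoter windows of these 4 late genes are printed because all 4 were at least 2-fold from 0 h at 7 h, Tnfsf13 in the opposite direction, and can be read for shared motifs. The windows are those of RefSeq on GRCm38.p6, 250 bases before to 50 after an annotated start, and lie at chr1:58802252-58802551 on the + strand for Casp8, chr1:58711241-58711540 (+) for Cflar, chr6:125349473-125349772 (+) for Tnfrsf1a and chr11:69685505-69685804 (-) for Tnfsf13. Capitals mark matches on either strand to the NF-kappaB motif, the AP-1 motif TGANTCA, the interferon-stimulated motif GAAANNGAAA or the STAT motif TTCNNNGAA.
Casp8: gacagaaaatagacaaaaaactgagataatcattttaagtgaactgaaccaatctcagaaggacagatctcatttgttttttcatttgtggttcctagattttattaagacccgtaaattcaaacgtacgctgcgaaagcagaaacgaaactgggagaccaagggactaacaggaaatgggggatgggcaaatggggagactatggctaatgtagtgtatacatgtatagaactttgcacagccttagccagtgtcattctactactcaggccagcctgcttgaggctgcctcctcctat
Cflar: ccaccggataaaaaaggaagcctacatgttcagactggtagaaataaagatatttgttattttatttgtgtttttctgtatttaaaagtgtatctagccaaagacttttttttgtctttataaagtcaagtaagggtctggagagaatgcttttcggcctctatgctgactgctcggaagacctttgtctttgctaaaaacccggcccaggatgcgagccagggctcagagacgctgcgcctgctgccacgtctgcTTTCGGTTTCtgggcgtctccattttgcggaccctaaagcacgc
Tnfrsf1a: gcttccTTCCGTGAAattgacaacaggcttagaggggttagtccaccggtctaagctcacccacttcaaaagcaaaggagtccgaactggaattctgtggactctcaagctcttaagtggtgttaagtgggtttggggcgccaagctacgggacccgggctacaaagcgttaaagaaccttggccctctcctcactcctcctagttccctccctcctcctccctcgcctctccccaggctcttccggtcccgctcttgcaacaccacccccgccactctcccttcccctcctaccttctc
Tnfsf13: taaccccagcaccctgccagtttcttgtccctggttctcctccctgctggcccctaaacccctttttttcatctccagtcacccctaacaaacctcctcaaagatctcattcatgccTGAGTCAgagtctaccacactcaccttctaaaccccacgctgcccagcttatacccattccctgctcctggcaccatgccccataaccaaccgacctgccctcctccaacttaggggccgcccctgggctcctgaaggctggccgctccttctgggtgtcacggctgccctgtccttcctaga

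The 4 windows shared no match. Cflar held the interferon-stimulated motif, Tnfrsf1a the STAT motif, Tnfsf13 the AP-1 motif, and Casp8 none of the 4 motifs. The 28 members with a window had 34 windows, of which 0 held the NF-kappaB motif, against 8.46% of all 32851 windows. The AP-1 motif stood in 3 of the 34 windows, those of Tnfsf13 and Tnfsf13b, against 7.81% of all windows. The interferon-stimulated motif stood in 2 of 34, of Cflar and Tnfsf13b, against 3.44%. The STAT motif stood in 3 of 34, of Casp12, Tnfrsf19 and Tnfrsf1a, against 8.30%. A match describes letters in this window only.

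The other receptors did not reach 2-fold at any time. Tnfrsf13c, the BAFF receptor known from B cells, had ratios of 1.09, 1.20, 1.04, 1.28 and 1.06, above the array median on all 5 arrays. It was the receptor with the least spread over the arrays (SD 0.10), on a probe in an affected run where 35.7% and 46.4% of probes were 2-fold higher at 0.5 h and 2 h. Its changes of 0.11 and -0.04 at these times became -0.64 and -0.93 under quantile normalization, and -0.57 and -1.17 with each run centred on its own median, the last past 2-fold. Of the B cell markers 3 were measured, with median ratios of -0.50, -0.27, -0.03, 0.32 and -0.29, and Cd79a alone among them was above the array median at 0 h (0.28). Their part in this ratio was not tested.

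Tnfrsf12a, the receptor of the ligand TWEAK, had ratios of 0.44, 0.39, 0.66, 0.23 and 0.38 as the mean of 2 probes. A further probe without a 0 h value read 0.77, 1.14, 0.30 and 0.20 at 0.5, 2, 7 and 21 h. Tnfrsf21, death receptor 6, had ratios of 0.35, 0, 0.59, 0.27 and 0.16. These receptors stayed within 0.36 of their 0 h value. Tnfrsf19, the receptor TROY of the developing nervous system and skin, had the lowest mean ratios of the 5 receptors. They were -0.34, -0.64, -0.32, -0.52 and -0.46, as the mean of 2 probes outside the runs that disagreed. One read -0.08, -0.04, 0.33, -0.14 and 0.10, and the other -0.60, -1.23, -0.98, -0.89 and -1.03, so the low rank rests on the second. Their changes at 2 h were 0.41 and -0.38. Over the 5 receptors the median change at 7 h was -0.08, with Tnfrsf1a alone past 2-fold.

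The TRAF adaptors link receptors to ubiquitin ligases and kinases, and Traf6 carries the signal of Toll-like and interleukin 1 receptors. Traf6 had ratios of 0.34, 0.28, -0.27, 0.28 and 0.01 on 2 probes outside the runs, and its change of -0.61 at 2 h had an SD over probes of 0.05. Both probes read lower at 2 h, by 0.64 and 0.58, and the 7 h value was back within 0.06 of 0 h. The 2 h change was -0.48 with each run centred on its own median. Traf4, with ratios of -0.09, -0.01, -0.30, 0.14 and 0.01, and Traf7, with 0.07, -0.30, -0.32, -0.05 and -0.40, stayed within 0.5 log2 units of 0 h. Traf5, an adaptor of CD40 and related receptors, had ratios of 0.69, 1.49, 1.85, 0.45 and 0.69. The change at 2 h was 2.23-fold (1.16) on a probe in an affected run, where 22.6% of probes were 2-fold higher and Traf5 ranked 14th of 84. It was 0.21 under quantile normalization, and 0.90 with each run centred on its own median.

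Of the RIP kinases, Ripk3 triggers necroptosis and Ripk4 is known from keratinocytes. Each had 2 probes, all in affected runs, and in each pair the probes disagreed. One probe of Ripk3 read 2.03, 5.45, 5.03, 1.39 and 2.03 at 0, 0.5, 2, 7 and 21 h, and the other -0.24, -0.45, -0.15, -0.80 and -0.36. The first was 10.7-fold and 8.02-fold higher at 0.5 h and 2 h, the second 0.862 and 1.06 of its 0 h level. In the run of the first, 23.4% of probes were 2-fold higher at 2 h, and it ranked 3rd of 94 at both times. The gene mean of 1.61 at 0.5 h had an SD of 2.57, and the 2 h mean of 1.54 turned to -0.29 under quantile normalization. Both probes were lower at 7 h, by 0.64 and 0.56, which gave 0.661 of the 0 h level (log2 change -0.60, SD over probes 0.06). Here the probes were close, and the change did not reach 2-fold, though it was -1.22 under quantile normalization.

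Ripk4 read 0.56, 1.22, 2.17, 0.54 and 0.25 on one probe and -2.01, -2.15, -1.31, -1.76 and -1.41 on the other. Its mean was 2.22-fold higher at 2 h (1.15, SD 0.64) and within 0.14 of 0 h at 7 h and 21 h, where the 21 h probes parted with changes of -0.32 and 0.60. The 2 h change was 0.67 under quantile normalization and 0.85 with each run centred on its own median, short of 2-fold. In the runs of its probes 31.8% and 27.9% were 2-fold higher at 2 h, and the probes ranked 16th of 88 and 29th of 86. The 2 probes disagreed on the ratio to the embryo itself, one above and one below the array median on every array. Fadd, the adaptor between death receptors and caspase 8, lacked a value at 0.5 h and read -0.16, 0.14, 0.07 and 0.13 at 0, 2, 7 and 21 h. Its changes were 0.30, 0.23 and 0.29.

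**Figure D4:**
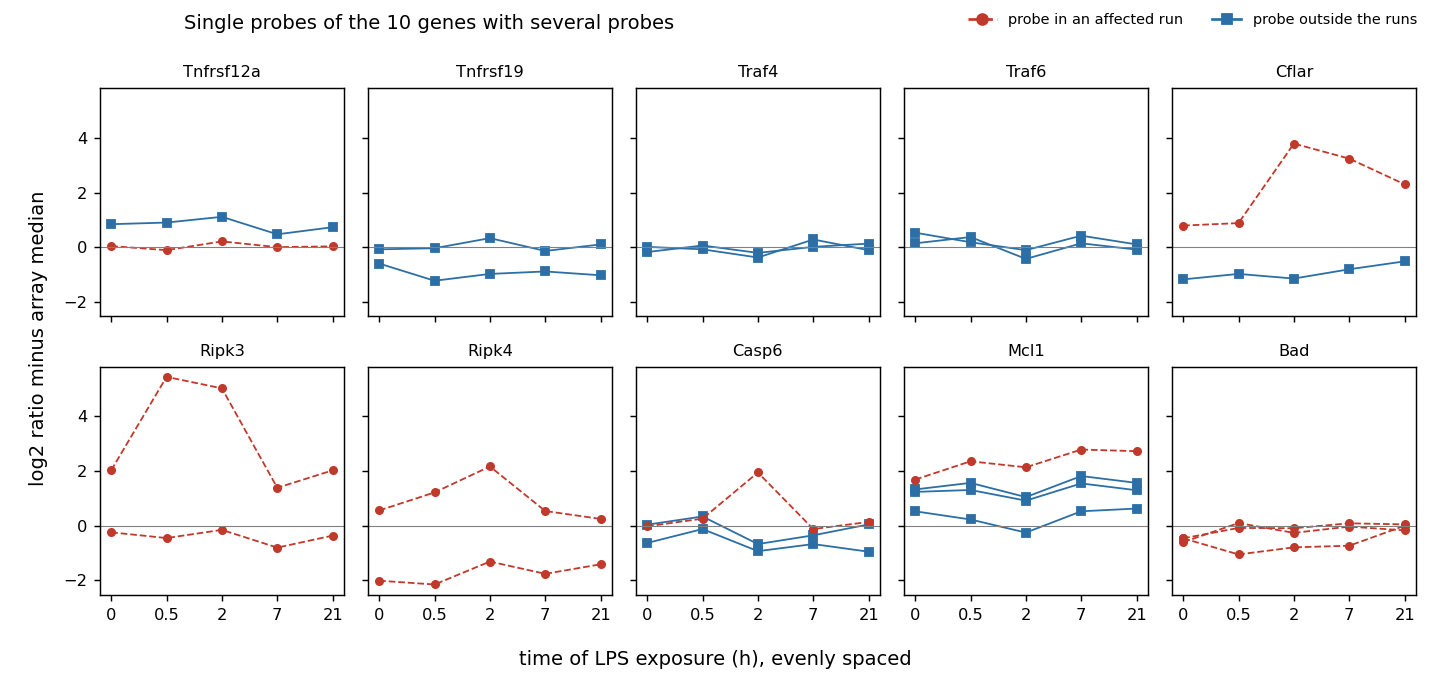
Log2 ratio minus array median of every probe of the 10 genes with several probes, at 0, 0.5, 2, 7 and 21 h (evenly spaced). Red dashed lines are probes in affected runs, and blue solid lines are probes outside them. The probes of Cflar and Ripk3 part by over 3 log2 units at 2 h, while those of Traf4 and Traf6 lie close together.

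The apoptotic caspases other than Casp8 showed no call. Casp6, an effector caspase, was measured by 3 probes with mean ratios of -0.20, 0.16, 0.12, -0.38 and -0.25. At 2 h its probe in an affected run was 3.91-fold higher (21st of 85 in its run, where 41.2% were 2-fold higher). The pair outside the affected runs stood at 0.814 and 0.614 of 0 h, in runs whose median changes were -0.27 and -0.21. At 7 h all 3 read below 0 h with changes of -0.04 to -0.39. Casp2, an initiator linked to DNA damage, had ratios of -0.24, 0.09, -0.72, -0.27 and -0.29 and lay within 0.05 of 0 h at 7 h and 21 h. Casp12, a member of the inflammatory group at the endoplasmic reticulum, had 0.27, 0.11, 0.65, 0.48 and 0.23. Casp14, which acts in cornification of the skin, lay below the array median throughout, at -0.82, -0.92, -0.64, -0.78 and -1.08. The last value made it the one member at least 2-fold below an array median, at 21 h, where 6.51% of all genes were.

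In the Bcl2 family, Mcl1, which keeps myeloid cells alive by holding Bak1 and BH3-only proteins in check, had ratios of 1.20, 1.37, 0.96, 1.67 and 1.56. Its 4 probes had changes of 0.49, 0.31, -0.01 and 1.11 at 7 h, and the last of these lies in an affected run. The mean of 1.39-fold at 7 h (log2 change 0.48) and 1.28-fold at 21 h (0.36) did not reach 2-fold, and outside the runs it was 0.27 and 0.13. The 2 h change of -0.23 was -1.32 under quantile normalization, past 2-fold. On the probe in the run Mcl1 was 2.16-fold and 2.06-fold higher at 7 h and 21 h, the highest and the 2nd highest change of 87 probes. Bcl2l2, another survival protein of the family, lacked a value at 0.5 h and had changes of -0.08, 0.70 and -0.07 at 2, 7 and 21 h. Bcl2a1a and Birc3, left out by the rule, were 5.33-fold and 6.63-fold higher at 7 h on probes outside the runs, and Birc5, the mitotic protein survivin, stood at 0.447 of 0 h at 21 h.

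On the side that promotes death, Bcl2l11 (Bim), a BH3-only protein that engages Bcl2 proteins, had the highest ratio of any member measured outside the affected runs. It read 1.90, 1.94, 2.15, 1.73 and 2.29, at least 3-fold above the array median on every array, and its changes ran from -0.17 at 7 h to 0.39 at 21 h. Quantile normalization put its changes at -1.77, -2.03 and -1.19 at 0.5, 2 and 7 h, at least 2-fold below 0 h. Bad, a BH3-only protein controlled by phosphorylation, was measured by 3 probes in affected runs with mean ratios of -0.50, -0.34, -0.38, -0.22 and -0.04. At 21 h the 3 probes of Bad were 0.42, 0.46 and 0.51 above 0 h, a mean of 0.46 with an SD of 0.04, short of 2-fold. The median changes of their runs were then 0.11, 0.33 and 0.28. With each run centred on its own median the mean was 0.28. At earlier times the same probes disagreed, with changes of 0.69, -0.59 and 0.38 at 0.5 h (SD 0.67). At 2 h they were 0.34, -0.34 and 0.37 (SD 0.4), and at 7 h 0.57, -0.27 and 0.55 (SD 0.48). Bak1, which forms the mitochondrial pore, had -0.32, -0.38, 0.51, -0.18 and -0.22, with a change of 0.83 at 2 h and within 0.14 of 0 h at the other times.

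Bcl2l15, a little studied member of the family known from the gut, had ratios of 1.40, 3.24, 7.10, 2.09 and 1.46. The 2 h array stood alone, 52.0-fold above 0 h (log2 change 5.70), after 3.56-fold at 0.5 h. Its probe ranked 5th of 83 in its run at 2 h, where 50.6% of probes were at least 2-fold higher, and the change was 1.92 under quantile normalization and 4.56 with each run centred on its own median. Bcl2l12, an inhibitor of p53 and caspases in human cells, was the lowest member at 0 h, with -0.96, -0.47, -0.06, -0.24 and -0.42. All its LPS arrays stood above 0 h, by 0.50, 0.91, 0.72 and 0.55, short of 2-fold, on a probe outside the runs. Bcl2l13, a mitophagy receptor, had -0.25, 0.14, -0.99, -0.67 and -0.47, and Bcl2l14 had -0.64, -0.91, -0.66, -0.51 and -0.19. Casp8ap2 (-0.90, -0.81, -0.85, -0.71 and -0.96) had the least spread over arrays of all 29 genes (SD 0.09), and Trafd1 (-0.31, -0.46, -0.72, -0.36 and -0.32) stayed within 0.41 of 0 h.

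Against the embryo, 6 members stood at least 2-fold above the array median at 0 h, where 5.40% of all genes did. These were Bcl2l11, Casp8, Bcl2l15, Tnfrsf1a, Mcl1 and Tnfrsf13c, and 0 members stood 2-fold below, against 7.06% of genes. At 0.5, 2, 7 and 21 h 8, 8, 7 and 5 members were above, where 13.1%, 17.4%, 7.19% and 6.88% of all genes were. Below the median by 2-fold were 0, 0, 0 and 1, where 7.33%, 7.50%, 7.71% and 6.51% of genes were. Over the 20 members with a probe outside the runs, 2 stood above at each time, against 3.97%, 5.85%, 7.44%, 6.29% and 5.39% of genes there. These were Bcl2l11 and Mcl1, with Tnfrsf12a in place of Mcl1 at 2 h. Below were 1, 0, 1, 0 and 1, against 8.17%, 8.42%, 9.24%, 8.62% and 7.34%. The member median was 0.07 at 0 h, against -0.03 for all genes. As RNA of mixed cells and of whole embryos was compared, fewer cells of a type and less RNA per cell cannot be told apart in these ratios.

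Other genes of TNF signalling and apoptosis came from a list of 87, of which 40 were measured. At least 2-fold higher were 3, 4, 5 and 3 of them at 0.5, 2, 7 and 21 h, where 5.95%, 12.4%, 4.08% and 3.05% of all genes were. Lower were 0, 0, 1 and 1, against 1.01%, 1.10%, 3.16% and 1.45%. Outside the affected runs, 1, 1, 4 and 3 of 31 were higher, against 1.28%, 4.22%, 4.52% and 2.55% of genes there, and 0 lower at each time, against 0.984%, 1.55%, 2.87% and 1.08%. Fas, the death receptor of the same superfamily, had ratios of -0.03, 0.61, 0.75, 1.47 and 0.49 and was 2.83-fold higher at 7 h and 1.43-fold at 21 h. Its high array was the same as that of Casp8 and Tnfrsf1a, on a probe outside the runs. Tank, which binds TRAF proteins, was 2.61-fold and 2.89-fold higher at 7 h and 21 h, and Tab2, which couples Traf6 to the kinase Tak1, was 2.44-fold higher at 7 h. The NF-kappaB inhibitor genes Nfkbia and Nfkbib were 3.31-fold and 2.41-fold higher at 7 h, Nfkbib on probes in affected runs (SD 0.30). Nfkbia was already 2.55-fold higher at 0.5 h on a probe outside the runs, and Nfkbib 4.71-fold at 2 h (SD over probes 3.19). At 21 h the mitochondrial gene Bnip3 was 2.88-fold higher (log2 change 1.52, SD 0.23) and Mdm2, the ubiquitin ligase of p53, 2.18-fold. Mdm2 was highest at 2 h, at 3.77-fold, and 1.71-fold higher at 7 h, on a probe outside the runs. Parp1, a DNA repair enzyme that caspases cleave, stood at 0.431 and 0.443 of its 0 h level at 7 h and 21 h on a probe in an affected run.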

How the data were processed

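The deposited table holds 1 log ratio per probe and array, read as log10 from its range. Log base, direction, dyes and normalization by the authors are not given in the sources used here. Multiplication by 3.32 turned them into log2, and the median of an array over the 18296 of 19828 probes with a value on all 5 arrays was subtracted from its values. Per array 19344 to 19670 probes had a value. The platform annotation of 2008 gave 14759 probes 1 gene symbol, 170 several and 4899 none, and 14628 of the first were matched by Entrez ID to the gene table of GRCm38.p6. Probes of a gene were averaged (8637 genes). A change is the log2 ratio after LPS less the one at 0 h, and all changes share the 0 h array. Without replicates there is no test, and precision is limited by the number of arrays. The steps were tested on simulated data with equal shifts on all probes of a gene and little noise. That test covers the calculation only. It held no affected runs and less spread between probes than these data, so it cannot speak to how reliable the values are.

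The members and lists were chosen with earlier results of these data known. Named are all members at least 2-fold from 0 h at any time, the extremes of each role, members whose probes disagree, and listed pathway genes at least 2-fold from 0 h at 7 h or 21 h. Alternatives were no centring, quantile normalization, the 0.5 h array as baseline, the median over probes, leaving out the affected runs, pairwise complete probes, a limit of 1.5-fold and log base 2. Inclusion of the 4 genes left out and centring of each run on its own median were added after seeing the data. Python 3.11.15, pandas 2.3.3 and matplotlib 3.10.9 were used.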

Additional observations from a re-analysis of the deposited data

How the results depend on the processing

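No paired analysis was possible because each time has 1 array. Of 13 gene and time pairs at least 2-fold from 0 h, 1 changed sign: Ripk3 at 2 h was -0.29 after quantile normalization and -0.06 with 0.5 h as the baseline. Of the single-gene values 72 kept to within the spread, 20 moved and 2 reversed, and of the counts and medians 109 kept and 59 moved. The median over probes could not move a single-gene value, because each called gene has 1 or 2 probes, where median and mean are equal. With pairwise complete probes these values were nearly unchanged. Without the affected runs, called genes with all their probes inside them have no value and are not in the tally. The 72 kept values are therefore not 72 separate checks. The spread is the pooled SD of the change over probes of a gene, 0.67, 0.97, 0.51 and 0.47 at 0.5, 2, 7 and 21 h. At 2 h it is 0.55 outside the affected runs. Medians used an SD over the square root of the number of members, and counts kept if equal or within 1.5-fold. The limit for medians treats the members as independent, so it is a rule of size and not a measured spread of the median. A kept value can fall short of 2-fold, as Traf5 at 2 h did (1.16, and 0.21 under quantile normalization). Without centring, which moves the median of all genes by -0.22 at 7 h and -0.15 at 21 h, the member medians were -0.18 at both times and 0 members were higher at 21 h (2.20% of all genes). Under quantile normalization 0 and 1 were higher at 0.5 h and 2 h (2.78% and 4.98% of all genes), 1, 3 and 3 lower at 0.5, 2 and 7 h (3.45%, 4.57% and 5.97%), and the medians at 0.5, 2 and 21 h were -0.14, -0.16 and -0.13. Against the 0.5 h array 2, 1 and 0 were higher (8.04%, 2.72% and 2.26% of all genes) and 1, 3 and 3 lower (1.60%, 8.21% and 7.26%) at 2, 7 and 21 h, with a 2 h median of -0.02. Without the affected runs 0 were higher at any time, and the 2 h median was -0.12, against -0.08 over all genes there. At least 2-fold above the array median were 2 members on each array (3.97%, 5.85%, 7.44%, 6.29% and 5.39% of genes there in order of time). At least 2-fold below it were 1 at 0 h, 1 at 2 h and 1 at 21 h (8.17%, 9.24% and 7.34%). The median ratios at 0, 2, 7 and 21 h were -0.24, -0.31, -0.25 and -0.3. Over all genes there they were -0.12, -0.23, -0.12 and -0.11. At 1.5-fold 5, 9, 5 and 2 were higher at 0.5, 2, 7 and 21 h (12.7%, 21.8%, 11.6% and 9.12% of all genes), and 3, 2 and 2 lower at 2, 7 and 21 h (5.71%, 10.8% and 6.48%). Against the array median at 1.5-fold 5, 4, 6, 4 and 3 stood below in order of time (16.6%, 15.7%, 18.1%, 17.6% and 14.9% of all genes), and 9 above at 21 h (14.6%). With log base 2 only 1 call was left, Bcl2l15 at 2 h (2.00% of all genes were higher), and 0 were higher at 0.5, 7 and 21 h or lower at 7 and 21 h. When the 4 genes left out by the rule were added back, 6 and 3 of 33 were higher at 7 h and 21 h (4.08% and 3.05% of all genes). At 21 h 2 of the 33 were lower (1.45%). With each run centred on its own median 3 were higher and 1 lower at 2 h (9.96% and 1.63% of all genes), and the 21 h median was 0.07. Beyond fewer genes, other limits or a rescaled log in the settings built that way, the cause was not tested. With 1 array per time, array-wide differences and LPS cannot be told apart.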
